A study of Gallus gallus with 6 samples.

Results

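The genes described here carry Wnt signalling into and through a cell: Wnt ligands, their Frizzled and LRP receptors, R-spondins and LGR receptors, inhibitors, the Dishevelled and Axin proteins, and the TCF/LEF factors. They were chosen by gene name. Of the 16963 genes in the deposited tables, 54 had a matching name and 44 of these had at least 10 estimated counts over all libraries. These 44 members comprised 11 ligands, 9 receptors and co-receptors, 5 R-spondins and LGR receptors, 9 secreted inhibitors, 2 membrane inhibitors, 4 Dishevelled or Axin genes and 4 TCF/LEF genes. The libraries hold total RNA of chicken (Gallus gallus) ovarian adenocarcinoma cells taken from ascites and grown as 3 primary lines, C27, C29 and C30 (replicates 1, 2 and 3). The lines were grown on gelatin-coated flasks to confluence, and each was sorted by FACS on aldehyde dehydrogenase (ALDH) activity, a property used to enrich stem-like tumour cells, to give ALDH+ and ALDH- cells. Each line gave 1 library per fraction, so 3 ALDH+ libraries were compared with 3 ALDH- libraries. Values by library are always given in the order C27, C29, C30. A line is 1 culture, and neither the ALDH gate nor any treatment other than the sort is given in the sources used here.

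Wnt ligands are secreted lipid-modified proteins that bind Frizzled receptors. With the co-receptors LRP5 and LRP6, this stops the destruction of beta-catenin, which then acts with TCF/LEF factors on target genes, while other Wnt ligands steer cell polarity without beta-catenin. SFRP proteins and FRZB bind Wnt ligands outside the cell, DKK1 blocks LRP co-receptors together with KREMEN proteins, and ZNRF3 removes Frizzled receptors from the surface unless R-spondins and LGR receptors hold it back. The pathway is known for maintaining stem cells in many epithelia and for its part in gonad development.

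Estimated counts totalled 22170788 to 26747453 per library, and 12811 genes were tested after low counts were filtered out. Markers of some other cell types differed strongly between the fractions. The summed level of 19 macrophage markers was 4010 to 5930 TPM (a transcripts-per-million level, scaled by transcript length) in ALDH- and 193 to 399 TPM in ALDH+ libraries. Of 18 tested macrophage markers 17 fell in ALDH+ cells, and all 18 had log2 changes below 0. All 12 tested fibroblast markers had log2 changes above 0 (median 0.81, 0 called without and 4 with the line as a block), at a summed 3130 to 12100 TPM in ALDH- and 8240 to 18600 TPM in ALDH+ libraries. Of 12 listed epithelial markers 6 were in the tables and 4 were tested. CDH1 fell (log2 -4.08, adjusted p = 0.0471), from 1.28 to 12.6 TPM in ALDH- to 0.351 to 0.678 TPM in ALDH+ libraries. KRT7 (0.64, adjusted p = 0.543) and KRT18 (1.35, adjusted p = 0.0687) were not called without the block. With the block, 1 of the 4 tested epithelial markers was called higher and 1 lower. KRT7 stood at 221 to 1930 TPM, and EPCAM stood at 0.0704 to 2.43 TPM. Of 7 tested lymphocyte markers 4 fell, while CD3E (log2 1.29, adjusted p = 0.197), CD3D (-0.58, 0.531) and LCK (-0.19, 0.839) were not called. Of 2 tested endothelial markers PECAM1 fell (log2 -2.98, adjusted p = 0.0069) and CLDN5 was not called (0.08, 0.946). The 3 tested mesothelial markers had a median log2 change of 1.25 (0 called without and 2 with the block). In bulk libraries such as these, fewer cells of a type and less RNA per cell cannot be told apart.

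The member with the highest mean level per length was RSPO3, an R-spondin, at 83.1 TPM over the 6 libraries of both fractions. It was followed by the receptor FZD1 (48.5 TPM), the Dishevelled gene DVL3 (26.9 TPM) and the secreted inhibitor FRZB (25.6 TPM). The order differed between libraries: in C27 ALDH+ cells FZD1 (104 TPM) lay above RSPO3 (79.4 TPM), and FRZB lay below DVL3 in all 3 ALDH- libraries but above it in the ALDH+ libraries of C29 and C30. Among ligands WNT5B had the highest mean (16.4 TPM), at 22.9 to 61.5% of the summed ligand TPM in each library, and WNT2B was next (8.07 TPM). In the C27 ALDH- library the order was turned, with 5.65 TPM of WNT5B and 8.95 TPM of WNT2B. FZD1 made up 29 to 50.5% of the summed Frizzled TPM, and FZD6 13.8 to 24.9%. The other Frizzled genes followed in the order FZD9 (12.9 TPM), FZD7 (10.6 TPM), FZD2 (7.1 TPM), FZD4 (5.83 TPM) and FZD3 (1.8 TPM), where the ranges over libraries of all neighbours from FZD9 on overlapped. Among the low members were the stem cell receptor LGR5 (0.0511 TPM, 14 counts in all) and the classic inhibitor DKK1 (0.185 TPM, 11 counts). Between them lay RSPO1, WNT9A, RSPO2 and SFRP5 (0.121 to 0.179 TPM).

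**Figure D1:**
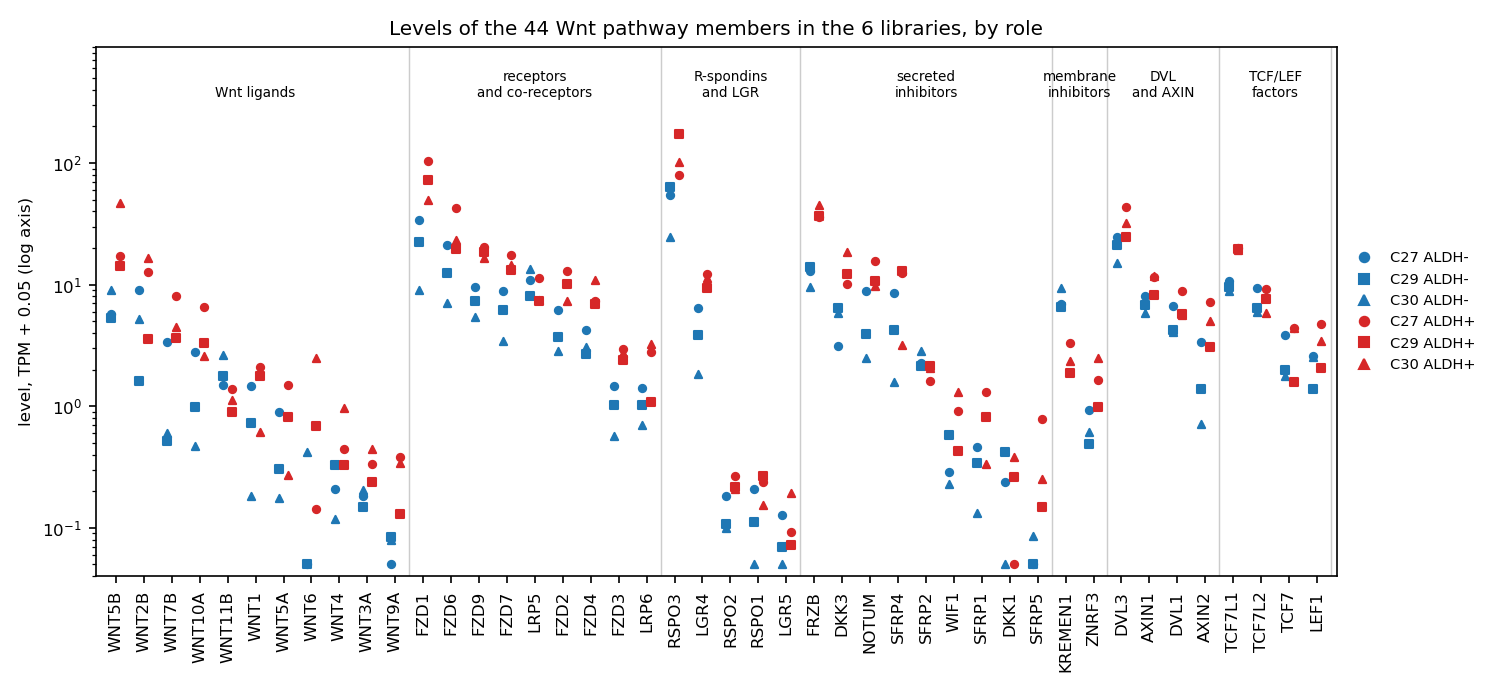
Level of each of the 44 members (TPM + 0.05, log axis) in the ALDH- (blue) and ALDH+ (red) libraries of C27 (circles), C29 (squares) and C30 (triangles), grouped by role. RSPO3, FZD1, DVL3 and FRZB lie highest, while 9 members with 11 to 72 counts in all lie near the bottom of their groups.

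Of the 44 members, 35 had enough counts to be tested. The 9 that did not were WNT3A, WNT4, WNT6, WNT9A, RSPO1, RSPO2, LGR5, DKK1 and SFRP5. Their totals ran from 11 to 72 counts. Of these, WNT6 had the most, with 0, 0 and 10 counts for ALDH- and 2, 13 and 47 for ALDH+ cells. RSPO1 had 6, 2 and 0 counts in ALDH- and 6, 7 and 3 in ALDH+ libraries. Of the 10 names under the minimum, WNT2, WNT8A, WNT8B, WNT16 and FZD10 had at most 4 counts, and WNT3, WNT7A, WNT9B, WNT11 and LGR6 had 0, which allows up to 0.0208 CPM (a counts-per-million level) over the 6 libraries (3 counts, counting error only).

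Between the fractions, 1 tested member rose in ALDH+ cells and 1 fell (edgeR, adjusted p under 0.05), in a fit that called 6.14% of all genes. The secreted inhibitor FRZB rose, and KREMEN1, a membrane receptor of Dickkopf proteins, fell. The share that rose was 2.86% of the 35 members, against 0.835% of all 12811 genes, and the share that fell was 2.86% against 5.3%. The fractions of a line come from 1 culture, and with the line as a block 8 members rose and 1 fell. These were 22.9% higher against 5.92% of all genes, and 2.86% lower against 7.6%. The 8 were FRZB, FZD1, FZD7, FZD9, LGR4, WNT5B, WNT7B and WNT10A, and the 1 was again KREMEN1. DESeq2 without the block called 7 members higher, namely FRZB, FZD1, FZD3, FZD4, FZD7, FZD9 and LGR4, and KREMEN1 lower (4.53 and 7.45% of all genes tested by it), and limma-voom called 1 and 1 (0.898 and 5.1%).

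The tested members lay mostly above 0. Of 35, 30 had a log2 change above 0, beside 50.3% of all genes tested, with a median of 0.89 beside 0.00 for all genes. In 24 members ALDH+ exceeded ALDH- within all 3 lines (28.4% of all genes), and in 4 it was lower in all 3 (27.7%). Scaling the libraries on the fibroblast markers, so that their median log2 change became 0, put the median over all genes at -0.80. This scaling moves the log2 change of every gene down by nearly the same amount, so the medians after it follow from those before. The member median was then 0.08, and 18 of 35 lay above 0. The part that the makeup of the fractions plays in these shifts was not tested.

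**Figure D2:**
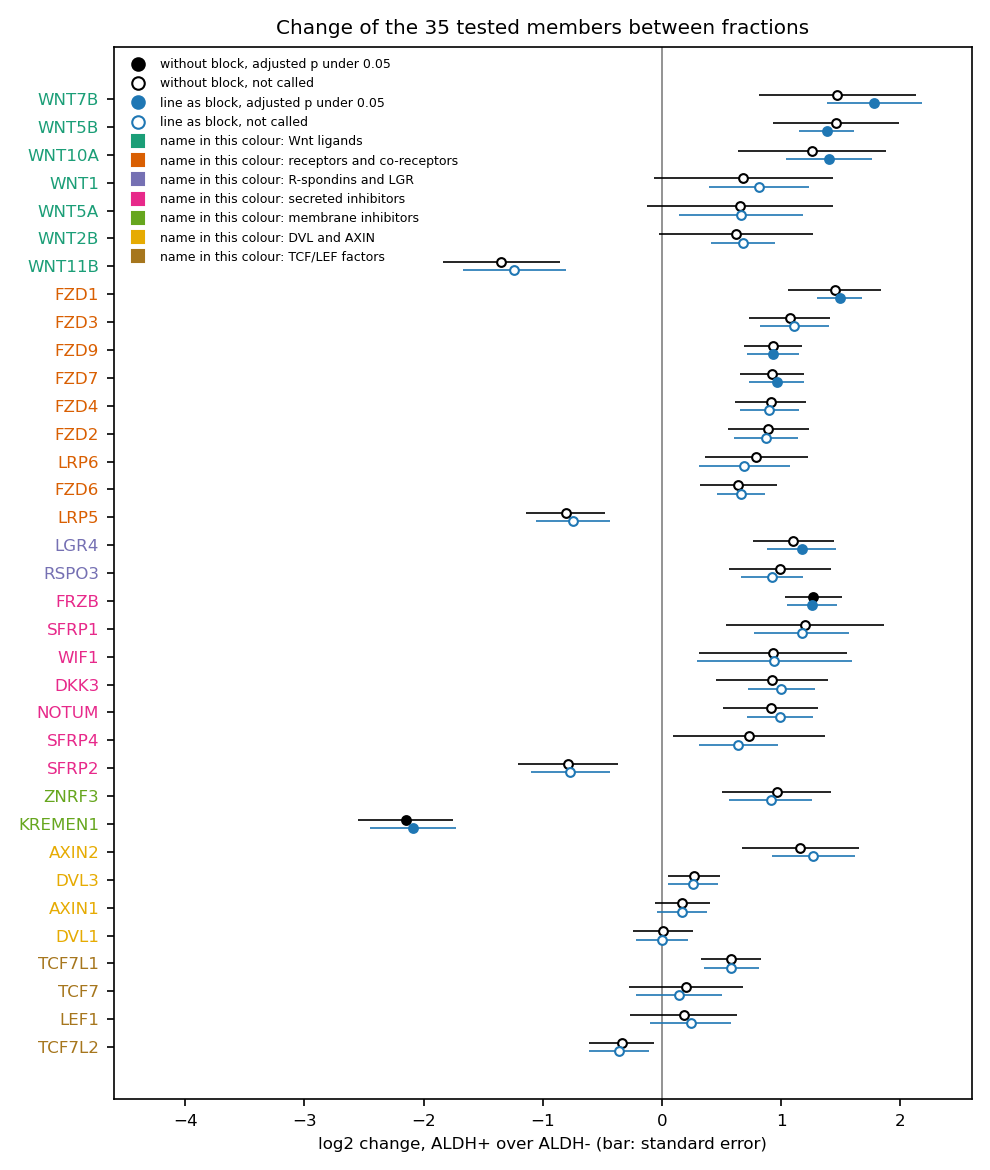
Log2 change (ALDH+ over ALDH-) with its standard error for the 35 tested members, fitted without a block (black) and with the line as a block (blue), where filled points have an adjusted p under 0.05. Most points lie to the right of 0, the 7 Frizzled genes all do, and KREMEN1 lies farthest to the left at -2.15.

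Frizzled receptors were higher in ALDH+ cells in every line. All 7 tested Frizzled genes were higher within all 3 lines (28.4% of all genes), with 21 of 21 within-line folds above 1, from 1.34 to 3.19. The folds of a line all come from the same 2 libraries and are not independent. Of the 7, edgeR called 0 without the block and 3 with it, against 0.835 and 5.92% of all genes. In 6 of the 7 the 3 ALDH+ libraries lay above the 3 ALDH- libraries without overlap (11.2% of all genes), and FZD6 overlapped. The summed Frizzled level was 85.0, 55.3 and 31.0 TPM for ALDH- and 208, 143 and 125 TPM for ALDH+ cells. The median log2 change of the 7 was 0.92, beside 0.81 for the fibroblast markers. With fibroblast marker scaling the Frizzled median was 0.12, which follows from these 2 values, with 6 of 7 above 0 and FZD6 at -0.17. The part of fibroblast RNA in the Frizzled levels was not tested.

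FZD1, the most abundant Frizzled gene and a receptor for both kinds of Wnt signal, stood at 49.9, 39.9 and 20.3 CPM (scaled from here on by TMM factors) in the ALDH- libraries. In the ALDH+ libraries it stood at 126, 110 and 64.8 CPM. C30 was lowest in both fractions, and the fractions did not overlap. The fold was 2.53, 2.76 and 3.19 in the 3 lines, and FZD1 rose with the block (log2 1.49, SE 0.19, adjusted p = 0.00419) but was not called without it by edgeR (log2 1.45, SE 0.39, adjusted p = 0.0748). DESeq2 called it without the block (adjusted p = 0.00719), as did edgeR when the C27 ALDH- library was left out (0.0427). The blocked call held whichever library was left out (adjusted p up to 0.0184). With fibroblast marker scaling FZD1 was not called without the block (log2 0.64, adjusted p = 0.205). With the block and that scaling together its log2 change was 0.65 (adjusted p = 0.026). In a blocked fit, here and below, leaving out either library of a line takes that line out of the comparison. Both results for a line are therefore nearly the same check.

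FZD7, a Frizzled gene studied as a Wnt receptor of stem cells, stood at 19.5, 16.2 and 11.2 CPM in ALDH- and 31.4, 29.6 and 28.0 CPM in ALDH+ libraries. The 3 ALDH+ libraries were close together and all above the ALDH- range. It rose with the block (log2 0.96, SE 0.23, adjusted p = 0.0378), while edgeR without it gave 0.92 (SE 0.27, adjusted p = 0.0995) and DESeq2 an adjusted p of 0.0192. FZD9 stood at 12.9, 12 and 11.2 CPM in ALDH- and 22.8, 26.2 and 19.8 CPM in ALDH+ libraries, again without overlap. It rose with the block (log2 0.93, SE 0.22, adjusted p = 0.0364; without the block 0.0699 by edgeR and 0.00419 by DESeq2). Neither blocked call held without each line in turn. FZD7 kept its call without either C29 library (0.03 and 0.0323), and reached up to 0.113 without any other library. FZD9 lay on either side of the threshold without the ALDH- or ALDH+ library of C30 (0.0426 and 0.0634). It reached up to 0.147 without any other.

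FZD6, an inhibitor of beta-catenin signalling in some settings and a polarity receptor, stood at 62.3, 45.1 and 31.4 CPM in ALDH- and 95, 60.6 and 60.6 CPM in ALDH+ libraries. Its highest ALDH- value, in C27, lay above 2 of the ALDH+ values (log2 0.64, SE 0.32, adjusted p = 0.301; with the block adjusted p = 0.0764). FZD2, FZD3 and FZD4 had log2 changes of 0.89, 1.07 and 0.91, and adjusted p values of 0.196, 0.119 and 0.129, or 0.0824, 0.0512 and 0.0552 with the block, all by edgeR. DESeq2 without the block called FZD3 (0.0137) and FZD4 (0.04) but not FZD2 (0.0821), and in all called 5 of the 7 Frizzled genes.

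The co-receptors did not share one direction. LRP5 stood at 41.2, 36.3 and 75.5 CPM in ALDH- and 34.4, 28.0 and 24.5 CPM in ALDH+ libraries. On the CPM scale it was lower in ALDH+ cells in all 3 lines, with the largest gap in C30, where the fold was 0.324, and it was not called (log2 -0.81, SE 0.33, adjusted p = 0.212). LRP6 had a log2 change of 0.79 (SE 0.43, adjusted p = 0.347), with folds of 1.62, 0.906 and 2.83 in C27, C29 and C30. A p above the threshold does not show that LRP5 or LRP6 was the same in both fractions.

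The R-spondin arm held 2 tested members. LGR4, a receptor for R-spondins, stood at 13.9, 10 and 5.98 CPM in ALDH- and 21.5, 21.1 and 21.5 CPM in ALDH+ libraries. The ALDH+ libraries were nearly equal, while the ALDH- libraries spread widely below them. LGR4 rose with the block (log2 1.17, SE 0.29, adjusted p = 0.0425), and was not called without it by edgeR (log2 1.10, SE 0.34, adjusted p = 0.112). DESeq2 called it without the block (adjusted p = 0.0238), and so did edgeR when the C27 ALDH- library was left out (0.0378). The blocked call ended without either C30 library (0.0775 and 0.117). Without the ALDH- or ALDH+ library of C27 it lay on either side of the threshold (0.0458 and 0.054). RSPO3, a ligand of LGR4, stood at 26.0, 37.8 and 18.6 CPM in ALDH- and 31.6, 87.9 and 44.2 CPM in ALDH+ libraries. It was higher in ALDH+ cells in each line, at folds of 1.22, 2.33 and 2.38, but the groups overlapped and it was not called (log2 0.99, SE 0.43, adjusted p = 0.242; with the block 0.0622).

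Among 7 tested ligands none was called without the block in edgeR, where 1 was higher and 1 lower at an unadjusted p under 0.05, and DESeq2 and limma-voom called 0. With the block 3 rose. WNT5B, a ligand usually placed in the branch without beta-catenin, stood at 5.94, 6.79 and 14.4 CPM in ALDH- and 14.8, 15.8 and 43.9 CPM in ALDH+ libraries. C30 was highest in both fractions, and the lowest ALDH+ library lay just above the highest ALDH- library. The within-line folds were 2.5, 2.33 and 3.04, and WNT5B rose with the block (log2 1.38, SE 0.23, adjusted p = 0.0103; without the block 1.46, SE 0.53, adjusted p = 0.173). This blocked call held without each library in turn (adjusted p up to 0.0459).

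WNT7B stood at 4.81, 0.918 and 1.2 CPM in ALDH- and 9.0, 5.28 and 5.09 CPM in ALDH+ libraries. C27 was highest in both fractions, and its ALDH- library came close to the ALDH+ libraries of C29 and C30. WNT7B rose with the block (log2 1.78, SE 0.40, adjusted p = 0.0301), but was not called without it (1.47, SE 0.66, adjusted p = 0.256). The blocked call lay on either side of the threshold without the ALDH- or ALDH+ library of C30 (0.0493 and 0.0765). Leaving out 1 library moved the log2 change without the block from 1.095 to 2.651, and without the C27 ALDH- library WNT7B was called (adjusted p = 0.0239). WNT10A, a ligand of the beta-catenin branch in skin and teeth of mammals, stood at 2.57, 1.06 and 0.598 CPM in ALDH- and 4.93, 3.16 and 2.1 CPM in ALDH+ libraries. The groups overlapped, since the ALDH- library of C27 exceeded the ALDH+ library of C30. WNT10A rose with the block (log2 1.4, SE 0.36, adjusted p = 0.0475; without it 1.26, SE 0.62, adjusted p = 0.299), and lost that call without any 1 library (adjusted p from 0.0727 to 0.149).

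WNT2B stood at 12.6, 2.66 and 11.0 CPM in ALDH- and 14.6, 5.15 and 20.5 CPM in ALDH+ libraries, with C29 lowest in both fractions (log2 0.62, SE 0.65, adjusted p = 0.627). WNT1 stood at 2.08, 1.19 and 0.299 CPM in ALDH- and 2.45, 2.62 and 0.727 CPM in ALDH+ libraries (log2 0.68, adjusted p = 0.64). WNT5A, the close relative of WNT5B, was far lower at 0.199 to 0.871 CPM in ALDH- and 0.202 to 1.21 CPM in ALDH+ libraries. WNT11B was the 1 tested ligand with a log2 change below 0 and is described with KREMEN1.

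Of 7 tested secreted inhibitors FRZB alone was called, in the fit without as well as with the block. FRZB, which sequesters Wnt ligands with a domain like that of Frizzled receptors, stood at 17.9, 23.1 and 20.1 CPM in the ALDH- libraries. In the ALDH+ libraries it stood at 40.4, 52.3 and 54.5 CPM. The groups lay far apart relative to their spread, at 20.4 ± 2.62 and 49.1 ± 7.56 CPM (mean and SD, n = 3 each). The folds were 2.26, 2.26 and 2.72 (log2 1.27, SE 0.24, adjusted p = 0.0186; with the block 1.26, SE 0.21, adjusted p = 0.0102). Without the block the call ended when either C29 library (ALDH- 0.0557, ALDH+ 0.0669) or the C30 ALDH- library (0.0713) was left out, while with the block it held without each library in turn (up to 0.049). With fibroblast marker scaling the log2 change was 0.46 (adjusted p = 0.151).

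DKK3, a Dickkopf relative that does not act on LRP co-receptors like DKK1, stood at 2.76, 6.98 and 8.07 CPM in ALDH- and 7.45, 11.5 and 14.8 CPM in ALDH+ libraries. It was higher in ALDH+ cells of each line, though the groups overlapped (log2 0.92, SE 0.47, adjusted p = 0.314; with the block 0.0569). SFRP4 stood at 11.8, 7.07 and 3.29 CPM in ALDH- and 14.1, 18.8 and 3.84 CPM in ALDH+ libraries. Its C30 libraries were lowest and nearly level with each other (log2 0.73, SE 0.64, adjusted p = 0.559). SFRP1 stood at 1.14, 0.964 and 0.349 CPM in ALDH- and 2.82, 2.17 and 0.686 CPM in ALDH+ libraries (log2 1.20, SE 0.66, adjusted p = 0.356). NOTUM, an enzyme that strips the lipid from Wnt ligands, had a log2 change of 0.91 (adjusted p = 0.246), and WIF1, which binds Wnt ligands, 0.93 (adjusted p = 0.437).

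**Figure D3:**
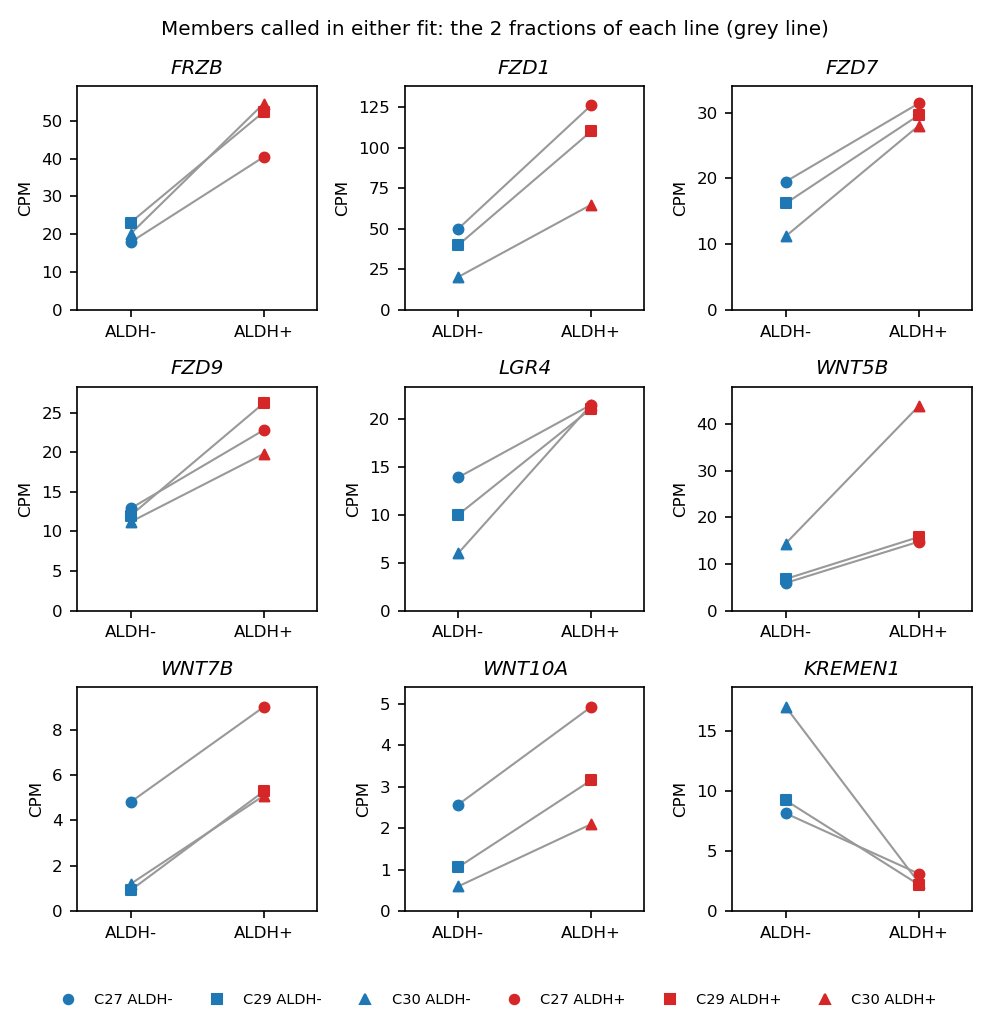
CPM (TMM scaled, linear axes from 0) of the 9 members called in either fit, with a grey line joining the ALDH- and ALDH+ library of each line. Every line slopes upward except in the KREMEN1 panel, and FRZB, FZD1 and KREMEN1 show no overlap between the fractions, whereas WNT10A overlaps.

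KREMEN1 moved the other way. It stood at 8.14, 9.22 and 17.0 CPM in the ALDH- libraries, and at 3.12, 2.21 and 2.38 CPM in the ALDH+ libraries. The ALDH+ values were low and close together, and the ALDH- values lay above all of them, with C30 highest. The mean went from 11.5 ± 4.83 to 2.57 ± 0.483 CPM (SD, n = 3), and KREMEN1 fell by 2.15 on the log2 scale (SE 0.40, adjusted p = 0.0179; with the block -2.09, SE 0.36, adjusted p = 0.0123). The call without the block ended when the C30 ALDH- library was left out (adjusted p = 0.0799), and likewise for each ALDH+ library (C27 0.0557, C29 0.071, C30 0.0638). With the block it held without each library in turn, at adjusted p up to 0.0287. ZNRF3, the other membrane inhibitor, stood at 1.97, 1.19 and 1.94 CPM in ALDH- and 2.92, 2.17 and 4.84 CPM in ALDH+ libraries, without overlap but not called (log2 0.96, SE 0.46, adjusted p = 0.293).

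Besides KREMEN1, 4 tested members had log2 changes below 0. These were LRP5, the ligand WNT11B (-1.35, SE 0.49, adjusted p = 0.168), the inhibitor SFRP2 (-0.79, SE 0.42, adjusted p = 0.338) and TCF7L2. WNT11B stood at 1.78, 2.57 and 4.88 CPM in ALDH- and 1.34, 1.08 and 1.17 CPM in ALDH+ libraries. SFRP2 stood at 3.52, 4.08 and 6.78 CPM in ALDH- and 2.01, 3.48 and 2.83 CPM in ALDH+ libraries. KREMEN1, LRP5, WNT11B and SFRP2 showed no overlap (14.6% of all genes were lower without overlap), and all 4 peaked in the ALDH- library of C30. Of the 1867 genes in all that were lower without overlap, 63.8% peaked in that library. In TPM the C27 values of LRP5 were 10.9 for ALDH- and 11.3 for ALDH+ cells, so that LRP5 was not lower in C27 and its groups overlapped on that scale. For SFRP2 both C29 libraries stood at 2.11 TPM, the lowest ALDH- and the highest ALDH+ value. TPM values are not TMM scaled, and on log2(TPM + 1) the median change of all genes was 0.36.

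The macrophage marker sum peaked in the same library, at 5930 TPM, against 4940 and 4010 TPM in the ALDH- libraries of C27 and C29. Not every marker followed the sum. PTPRC, CSF1R, TLR4, CD86, C1QA, C1QB and C1QC peaked in the ALDH- library of C27 (CSF1R at 209, 78.1 and 106 TPM). The other macrophage markers peaked in that of C30, such as MARCO at 826, 777 and 1480 TPM. In the ALDH+ libraries the sum was 399, 314 and 193 TPM, and defining markers were present there at low levels, such as MARCO at 37.2, 11.5 and 30 TPM. No listed marker in the tables was at 0 throughout. The macrophage markers had a median log2 change of -5.01, further below 0 than KREMEN1 or any other member. The part of macrophage RNA in the levels of these members was not tested.

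**Figure D4:**
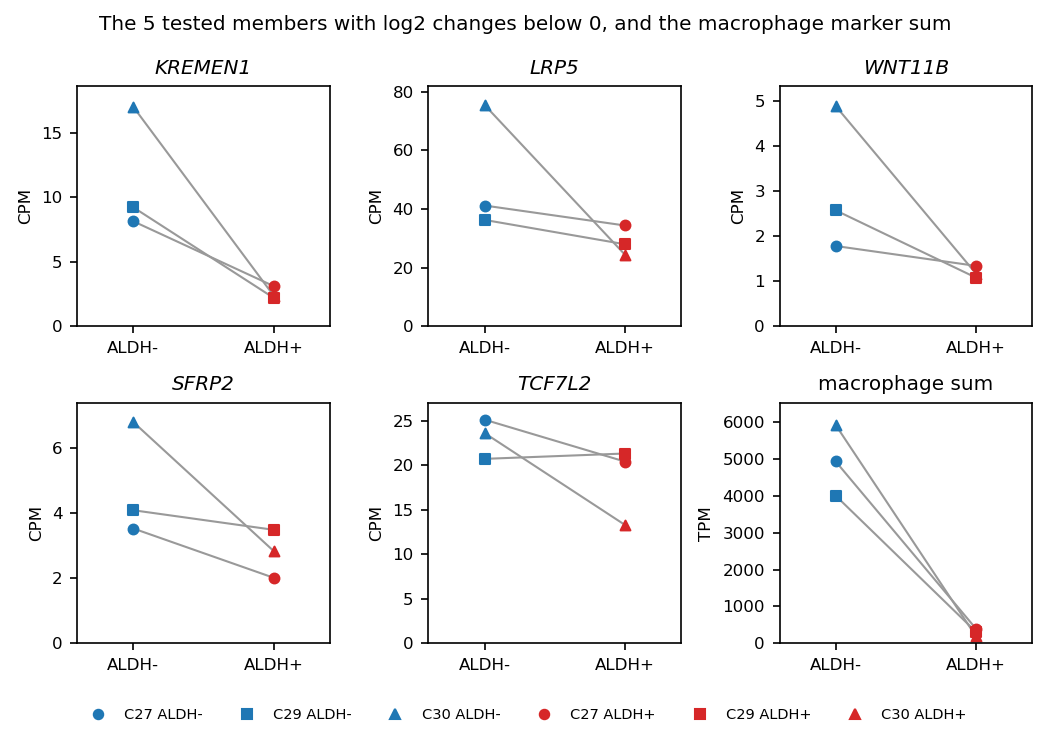
CPM (TMM scaled) of the 5 tested members with log2 changes below 0, and the summed TPM of the macrophage markers, in the ALDH- and ALDH+ library of each line (grey lines, axes from 0). In KREMEN1, LRP5, WNT11B and SFRP2 the C30 ALDH- library is the highest of the 6, as it is in the macrophage sum, while TCF7L2 is highest in the ALDH- library of C27.

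Inside the cell, none of the 8 tested Dishevelled, Axin and TCF/LEF genes was called by edgeR with or without the block under TMM scaling, or by DESeq2 or limma-voom, although AXIN2 had an unadjusted p of 0.0459. With fibroblast marker scaling, edgeR called DVL1 (log2 -0.80, adjusted p = 0.0361) and TCF7L2 (-1.14, 0.0149) lower, and with the block added also AXIN1 (-0.68, 0.0293) and DVL3 (-0.58, 0.0476). The same scaling called 5400 of all 12811 genes lower, and 7166 with the block. DVL3, which relays the signal from Frizzled receptors, stood at 41.1, 42.7 and 37.9 CPM in ALDH- and 58.6, 42.5 and 46.0 CPM in ALDH+ libraries (log2 0.27, SE 0.22, adjusted p = 0.522). DVL1 stood at 30.2, 23.0 and 27.8 CPM in ALDH- and 32.6, 26.6 and 22.3 CPM in ALDH+ libraries (log2 0.01, SE 0.25, adjusted p = 0.99). AXIN1, a scaffold of the beta-catenin destruction complex, stood at 17.9, 18.2 and 19.4 CPM in ALDH- and 20.7, 18.7 and 22.9 CPM in ALDH+ libraries (log2 0.17, SE 0.23, adjusted p = 0.715). The fractions overlapped in DVL1 and DVL3, and the DVL3 fold in C27 was 1.43 against 0.997 in C29.

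AXIN2, a direct target gene of beta-catenin in many tissues, stood at 6.51, 3.21 and 1.99 CPM in ALDH- and 11.4, 6.19 and 8.72 CPM in ALDH+ libraries. It was higher in ALDH+ cells in each line, at folds of 1.75, 1.93 and 4.38, with overlap between the groups (log2 1.16, SE 0.49, adjusted p = 0.233; with the block 1.27, SE 0.35, adjusted p = 0.0573). It was named after its values were seen.

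The TCF/LEF factors bind target genes for beta-catenin. TCF7L1, mostly a repressor, stood at 11.1, 12.4 and 14.7 CPM in ALDH- and 17.3, 21.9 and 18.2 CPM in ALDH+ libraries. The groups did not overlap, but the change was not called (log2 0.58, SE 0.25, adjusted p = 0.246). TCF7L2 stood at 25.1, 20.7 and 23.6 CPM in ALDH- and 20.4, 21.3 and 13.3 CPM in ALDH+ libraries (log2 -0.34, SE 0.27, adjusted p = 0.52). Its sign depended on the scale, since on log2(TPM + 1) the change was 0.05. On that scale the median over all genes was 0.36. LEF1 stood at 3.22, 2.07 and 5.28 CPM in ALDH- and 4.9, 2.89 and 4.12 CPM in ALDH+ libraries, with full overlap (log2 0.18, SE 0.45, adjusted p = 0.858).

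TCF7 had a log2 change of 0.20 at the gene level (SE 0.48, adjusted p = 0.842), while its transcripts took different shares in the 2 fractions, a description made after the values were seen. Transcript ENSGALT00000106633 of 1755 bases made up 25.5, 22.9 and 28.0% of the estimated TCF7 counts in ALDH- and 58.2, 45.4 and 45.5% in ALDH+ libraries. The shares did not overlap, and how often this holds among other genes with several transcripts was not counted. They rest on 9.41 to 58.8 estimated counts of that transcript per library, which are split from shared reads by a model, and with 3 libraries a group the smallest two-sided p that an exact permutation test allows is 0.1. In the authors' deposited table this transcript had an unadjusted p of 0.121.

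For comparison, 50 other genes of the pathway were tested, among them secretion factors, polarity genes, the destruction complex, nuclear cofactors and target genes. edgeR called 0 of them without the block, where unadjusted p values under 0.05 went to 9 higher and 2 lower genes (18 and 4%, against 9.23 and 11.3% of all genes). By DESeq2 without the block 5 were higher and 1 lower, where 4.53 and 7.45% of all genes tested by it were. By limma-voom 0 were called, against 0.898 and 5.1% of all genes. With the block 2 rose and 1 fell, or 4 and 2%, below the 5.92 and 7.6% of all genes. CTBP2, a corepressor, went from 16.5, 17.9 and 10.7 CPM in ALDH- to 29.1, 35.2 and 26.4 CPM in ALDH+ libraries (block log2 1.03, SE 0.22, adjusted p = 0.026). PRICKLE1, a planar polarity gene, went from 1.93, 2.02 and 2.04 to 5.24, 3.52 and 6.34 CPM (block log2 1.29, SE 0.33, adjusted p = 0.045). TLE4, a corepressor that binds TCF/LEF factors, fell from 21.8, 18.1 and 33.6 to 10.2, 9.71 and 14.4 CPM (block log2 -1.07, SE 0.22, adjusted p = 0.0225), and it too was highest in the ALDH- library of C30. Without the block CTBP2, PRICKLE1 and TLE4 had adjusted p values of 0.0864, 0.0921 and 0.099. With it, each of these calls held when either C29 library was left out and ended when any C27 or C30 library was (adjusted p up to 0.0854, 0.188 and 0.128).

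The next 3 by p with the block were ROR2, a receptor of WNT5A (log2 1.54, adjusted p = 0.0591), TNKS2, which marks Axin for destruction (0.80, adjusted p = 0.0621), and the kinase gene CSNK1E (0.71, adjusted p = 0.063). Of 12 tested target genes none was called with or without the block by edgeR. DESeq2 without the block called 1 of them higher, where it called 4.53% of all genes higher. The median log2 change of the 12 was 0.33, and 10 lay above 0, beside 50.3% of all genes tested. Beta-catenin itself (CTNNB1) had a log2 change of 0.35 (adjusted p = 0.47), and WLS, the carrier that brings Wnt ligands to the surface, 0.59 (adjusted p = 0.287). Over all 50 genes the median was 0.42, below the member median of 0.89, and the difference between the lists was not tested.

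The authors' deposited table tests transcripts rather than genes. At its false discovery rate under 0.05, it lists transcripts of FRZB, FZD1, FZD3, FZD7, FZD9 and LGR4 as higher in ALDH+ cells and KREMEN1 as lower, where 3.15 and 5.97% of all its transcripts with a rate were higher and lower. In that deposited table FRZB has an unadjusted p of 1.35e-07 and KREMEN1 of 4.33e-06. It also holds a separate, stricter adjusted p, which is 0.00336 for FRZB and 0.107 for KREMEN1. Of the genes just listed, only FRZB is under 0.05 by that value. Since the table was made from the libraries analysed here, it is not independent evidence.

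The lines were also compared, with the fraction in the model. Among the 35 tested members edgeR called 0, against 0.367% of all genes, and 12 had an unadjusted p under 0.05 (34.3%, against 19.9% of all genes). DESeq2, which called 9.37% of all genes, called 4 of the 35 (WNT2B, WNT5B, FZD1 and SFRP4) and also WNT6, which edgeR had not tested. Each line has 1 culture whose 2 fractions are the only repeats. The p-values therefore measure the spread left after the fraction and line terms, and not the spread between cultures of a line.

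The patterns by line differed from gene to gene. WNT2B was lowest in C29, at 2.66 and 5.15 CPM in the 2 fractions, where the other lines had 11.0 to 20.5 CPM (edgeR adjusted p = 0.0853). WNT5B was highest in C30 within each fraction, at 14.4 and 43.9 CPM against 5.94 to 15.8 CPM in C27 and C29 (adjusted p = 0.0911). FZD1, SFRP4, SFRP1 and WNT1 were lowest in C30 within each fraction (adjusted p = 0.124, 0.124, 0.181 and 0.156). The edgeR calls between lines changed when 1 library was left out. Such a fit leaves a line with 1 library, and no count over all genes is given for it. Its calls are therefore not listed here.

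**Figure D5:**
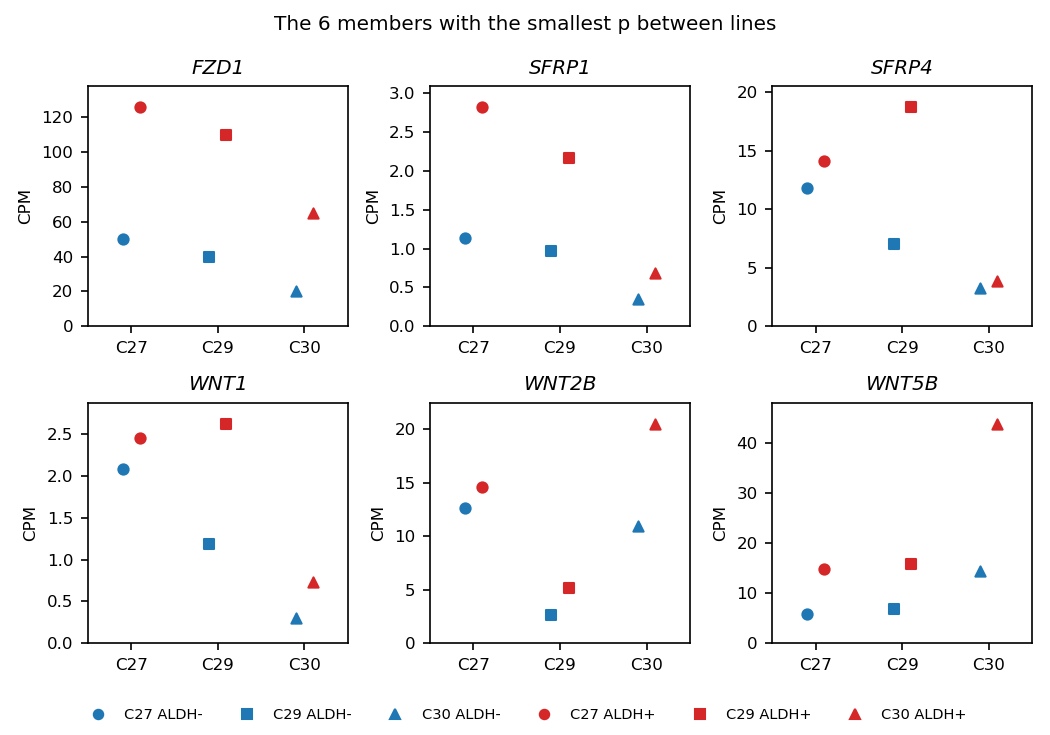
CPM (TMM scaled, axes from 0) of the 6 members with the smallest p between lines, for the ALDH- (blue) and ALDH+ (red) library of each line. C30 is lowest within each fraction for FZD1, SFRP1, SFRP4 and WNT1 and highest for WNT5B, while C29 is lowest for WNT2B.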

How the data were processed

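Per the labels, the 6 libraries of total RNA were read as pairs of 125 bases. The submitters' processing notes name FastQC, Trimmomatic, HISAT2, kallisto, DESeq2 and the build GRCg6a, without versions. Estimated counts and TPM per transcript were deposited by the authors. Their deposited comparison table holds a size-factor scaled signal, a ratio (fold), log2 fold changes, a Wald score and p-values, and transcript lengths are an other kind of value per the file headers. The 28756 transcripts were summed to 16963 genes by gene ID and rounded; 319 without an ID (0.285 to 0.328% of counts) were left out. Gene positions and sequences are not used here.

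Fractions were compared by the quasi-likelihood test of edgeR 4.0.16 (R 4.3.3, TMM factors, filterByExpr with a minimum count of 10 and total of 15), Benjamini-Hochberg adjusted over all 12811 genes, threshold 0.05, two-sided. Adjusted p values are from edgeR unless DESeq2 1.42.0 or limma 3.58.1 is named. Standard errors come from the F statistic. Self-tests on simulated data of 12099 genes called 100.0% of 4-fold changes in both fits, and 9.0% of 2-fold changes without and 86.0% with the block. The spread set in the simulation was not fitted to these libraries. The percentages check that the fits run as intended, and do not give the share of real changes that would be called here.

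Both fractions of a replicate number come from the same line, so the numbers pair the samples. Within a number, the 2 libraries' deviations from their group means had correlations over genes of 0.661 (C27), 0.165 (C29) and 0.487 (C30). The lines were tested with an edgeR F test on their coefficients, the fraction being a covariate. In the fit without the block, p-values measure the spread between the libraries of a fraction, which come from different lines. With the block, and in the test of lines, they measure the spread left after the line and fraction terms.

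Named were all members called in either fit, the 3 with the highest CPM per role, the 6 with the smallest p between lines, and of the other pathway genes the 6 with the smallest p with the block. FZD2, FZD3, FZD4, LRP6, WNT5A, WNT6, WNT11B, LGR5, DKK1, NOTUM, WIF1, SFRP2, TCF7, CTNNB1 and WLS were named after their values were seen. The members and lists were chosen with earlier results of these data known.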

Additional observations from a re-analysis of the deposited data

Results flagged for a closer look

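On the TMM-scaled CPM scale, DVL1 had log2 ratios of ALDH+ to ALDH- of opposite sign in C29 (0.21) and C30 (-0.32). The 95% counting intervals, which cover counting error only, were 0.04 to 0.38 and -0.49 to -0.15, so each left out 0. They do not cover the choice of scale. In TPM, which is not TMM scaled, DVL1 was higher in ALDH+ cells in both lines. It stood at 4.19 (ALDH-) and 5.68 (ALDH+) TPM in C29, and at 4.03 and 5.58 TPM in C30. With 1 library per line and fraction the spread between cultures is unknown, and the difference between lines was not tested.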

How the results depend on the processing

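The count of members higher in ALDH+ (1) was 8 with the replicate block (the line), 7 in DESeq2, 3 on log2(TPM + 1) and log2(TPM + 0.1), 0 with fibroblast marker scaling, and 0 to 4 without 1 library. With the block it was 15 with library size only, 1 with fibroblast marker scaling, and 3 to 9 without 1 library. Over all genes, 107 were higher without the block, 758 with it, 626 in DESeq2 and 33 with fibroblast marker scaling. On the 2 TPM scales 268 and 238 of 11652 genes were higher. Leaving out 1 library without the block gave 13 to 370 higher genes. With the block, 1269 genes were higher with library size only, 149 with fibroblast marker scaling, and 356 to 1096 without 1 library. Members lower (1) numbered 6 with fibroblast marker scaling, 8 with the block added, and 0 or 1 without 1 library. The 6 were KREMEN1, LRP5, WNT11B, SFRP2, TCF7L2 and DVL1, and with the block AXIN1 and DVL3 joined them. Of all 12811 genes, fibroblast marker scaling called 5400 lower, and 7166 with the block added. Other pathway genes higher (0) numbered 2 with the block, 5 in DESeq2, 1 on either TPM scale and 0 to 1 without 1 library; those lower (0) numbered 1 with the block, 1 in DESeq2 and 7 with fibroblast marker scaling. Members differing between lines (0) numbered 1 with library size only and 5 in DESeq2 (WNT6 included), and the calls also changed without 1 library. Apart from the calls named in the report, the block changed no call of the members or of the 6 other pathway genes named by rule. DESeq2 size factors, upper quartile factors, library size only, limma-voom and both other filters without the block left the member counts at 1 and 1. The block combined with other choices was added after seeing the data. Fibroblast marker scaling, first without and then with the block, turned AXIN1 (-0.64, -0.68), DVL1 (-0.80, -0.845), DVL3 (-0.53, -0.58), FZD6 (-0.17, -0.18), LEF1 (-0.63, -0.605), LRP6 (-0.02, -0.15), SFRP4 (-0.081, -0.21), TCF7 (-0.60, -0.71), TCF7L1 (-0.23, -0.26), WNT1 (-0.12, -0.029), WNT2B (-0.19, -0.17), WNT5A (-0.15, -0.18), TNKS2 (-0.025, -0.05) and CSNK1E (-0.14, -0.14) below 0. TCF7L2 turned to 0.049 and 0.055 on the 2 TPM scales, where the median of all genes moved to 0.36 and 0.41. Without 1 library, DVL1 ran from -0.128 to 0.148 and LEF1 from -0.099 to 0.648 in the fit without the block; with it, DVL1 turned to -0.034, -0.029, -0.108 and -0.105 without a C27 or C29 library, and TCF7 to -0.058 and -0.104 without a C30 library. The cause of these changes was not tested. Members with few counts, such as WNT1, WNT5A and WIF1, are limited by depth.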
